A study of Mus musculus with 6 samples.

Results

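Legumain (Lgmn), 8 cathepsins (Ctsa, Ctsb, Ctsd, Ctse, Ctsh, Ctsl, Ctss and Ctsz) and cystatin C (Cst3) were described in the villus epithelium of the mouse duodenum, in 3 double mutant and 3 wild-type mice. These 10 genes, of 20409 features in the count table, were chosen by the measured rise of Lgmn in the double mutant villi together with the family it belongs to, so their changes are given as a description. Which side of the threshold each fell on in the fit across all genes is stated for them, but no p-value is given and nothing rests on it. All 10 were in the table, and all 10 passed the filter on low counts that left 13346 genes for testing. The change in Lgmn was the largest rise among the 10, with Ctsh also higher, Ctsl and Ctse lower, and Ctsa, Ctsb, Ctsd, Ctss and Ctsz at log2 fold changes of -0.11 to 0.15.

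The double mutant mice are labelled as a Smad4 knockout with beta-catenin GOF (gain of function). The Villin-CreERT2 transgene, a Cre recombinase that tamoxifen activates and that the Villin promoter drives in the whole intestinal epithelium, deleted the floxed Smad4 alleles and removed exon 3 from a floxed beta-catenin (Ctnnb1) allele, on a background enriched for C57BL6. The wild-type villi came from littermates that received no tamoxifen, so genotype and tamoxifen cannot be told apart, and the alleles those littermates carried and the ages are not given in the sources used here. Mouse 1 of each group is labelled male, and mice 2 and 3 are labelled female. The paper states that the villi were compared a week after induction of the mutation. Villi were freed from the duodenum with EDTA, kept on a filter and lysed for poly-A selected RNA sequencing. The design holds the single comparison of double mutant with wild-type villi.

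Lysosomes degrade material that reaches them by endocytosis or autophagy, and their proteases are made as inactive precursors that mature in the acid lumen. Legumain is a cysteine endopeptidase that cleaves after asparagine and trims other lysosomal proteases into their mature chains. Cathepsins B, H, L, S and Z are papain-family cysteine proteases, cathepsins D and E are aspartic proteases, cathepsin A is a serine carboxypeptidase, and cystatin C is a secreted inhibitor of the cysteine members.

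The libraries held between 19678507 and 26337318 counts, at which 3 counts corresponded to 0.125 to 0.163 CPM (counts per 1000000 after TMM scaling, which evens out differences in RNA composition). Smad4 fell from 148 ± 30.4 to 31.7 ± 5.4 CPM (SD, n = 3 per group), a log2 fold change of -2.22 with SE 0.187 and adjusted p = 0.000145 in edgeR's quasi-likelihood test, whereas Ctnnb1, whose mutant allele lacks an exon, had a log2 fold change of -0.15 with adjusted p = 0.359. The summed level of 15 enterocyte markers was 67060 to 78050 CPM in the wild type and 40790 to 42510 CPM in the double mutant, and 11 of the 15 fell and 1 rose, beside 17% and 19.7% of all tested genes. The summed level of 12 stem cell markers was 102.8 to 210.3 CPM in the wild type and 425.4 to 539.2 CPM in the double mutant, and 8 of the 12 rose, beside 19.7% of all tested genes. Epithelial markers covered 7841 to 8707 and 7651 to 8583 CPM in the respective groups. Wild-type mouse 1 stood apart, with 122 CPM summed over 7 goblet cell markers and 7.91 CPM over 7 Paneth cell markers, where the other wild-type mice had 10840 and 11490 CPM of goblet and 954.2 and 1592 CPM of Paneth cell markers. The double mutant mice had 4397 to 4857 CPM of goblet and 390 to 975.7 CPM of Paneth cell markers. Where leaving that mouse out changed a call among the 10 genes, with a call meaning an adjusted p under 0.05, this is stated. In such bulk samples fewer cells of a type and less RNA per cell cannot be told apart, and the part that these shifts in cell markers have in any change below was not tested.

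Of the 10 genes, 2 were called higher (Lgmn and Ctsh), beside 19.7% of all tested genes, and 2 were called lower (Ctse and Ctsl), beside 17% of all tested genes. With a log2 fold change of at least 2 as well, Lgmn remained among the higher genes, beside 3.04% of all tested genes, and Ctse among the lower genes, beside 2.26%. The 3 double mutant mice lay above all 3 wild-type mice for Lgmn, Ctsh and Cst3, where 28.1% of tested genes did so, and below them for Ctse, Ctsl and Ctsd, where 24.2% did so. The median log2 fold change was 0.06 over the 10 genes and 0.02 over all tested genes. Because Lgmn was selected on this contrast, nothing is read from these counts. Scaling by library size alone, without TMM factors, moved the median of all tested genes to 0.215 and that of the 10 genes to 0.254, and split the calls over all genes into 3732 higher and 1425 lower, from 2632 and 2273. Among the 10 genes it added Cst3 to those called higher.

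**Figure D1:**
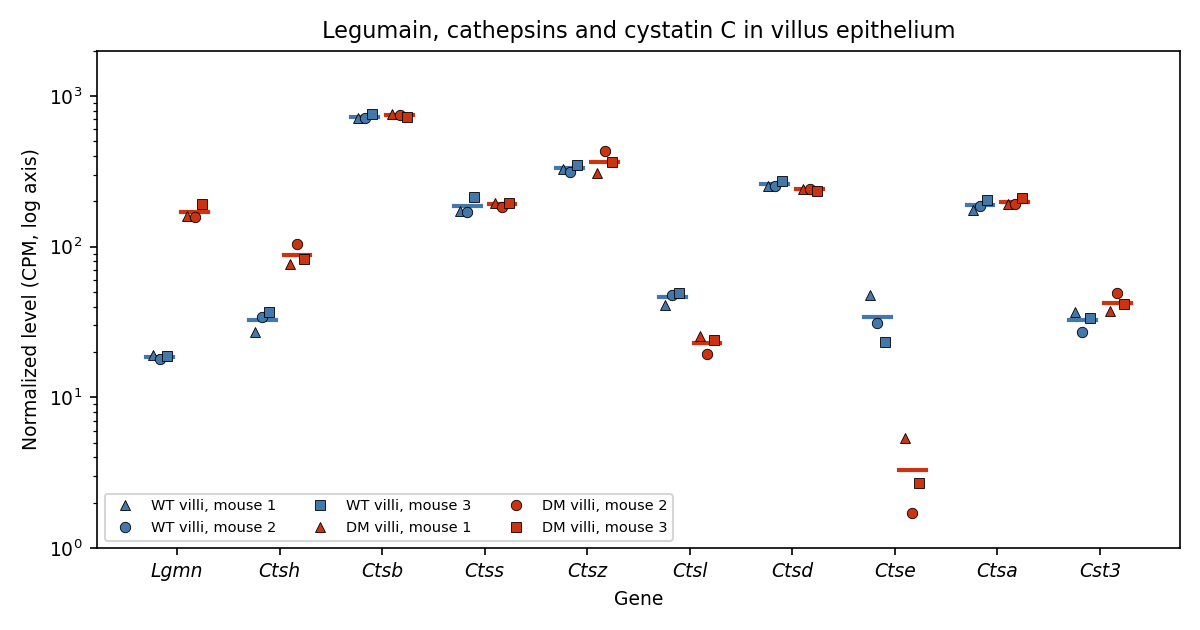
Level of each of the 10 genes in each mouse, in CPM on a log axis, with wild-type (WT) villi in blue and double mutant (DM) villi in red, a symbol per mouse and a bar of the same colour at each group mean. Lgmn at 17.8 to 19.2 CPM in the wild type and 157 to 193 CPM in the double mutant has the widest gap upward and Ctse the widest gap downward, while Ctsb overlaps between the groups.

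Lgmn (ENSMUSG00000021190) lies on the minus strand at chr12:103632294-103678023 (mm9). Its level was 19.2, 17.8 and 18.7 CPM in wild-type mice 1, 2 and 3, and 159, 157 and 193 CPM in double mutant mice 1, 2 and 3. The raw counts behind these levels were 460, 328 and 370 in the wild type and 3380, 3386 and 4067 in the double mutant. The wild-type mice lay within a narrow band, and every double mutant mouse was far above it. The means were 18.6 ± 0.669 and 169.6 ± 20.3 CPM (SD, n = 3 per group), a 9.13-fold higher level and a log2 fold change of 3.19 with SE 0.128 and a 95% interval of 2.90 to 3.48. The log2 fold change stayed between 3.09 and 3.245 with any mouse left out. By its size the rise ranked 82 among the 13346 tested genes.

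The RefSeq transcription starts of Lgmn and the start of Ctsd are shown because MiT/TFE factors, the family of transcription factors that drives lysosomal genes, bind an E-box, and these windows differ in holding it. Each window is the 250 bases before a RefSeq start in GRCm38.p6, a later build than the mm9 of the counts, printed 5′ to 3′ along the gene's minus strand with every CACGTG in capitals.
Lgmn start 1, chr12:102439729-102439978: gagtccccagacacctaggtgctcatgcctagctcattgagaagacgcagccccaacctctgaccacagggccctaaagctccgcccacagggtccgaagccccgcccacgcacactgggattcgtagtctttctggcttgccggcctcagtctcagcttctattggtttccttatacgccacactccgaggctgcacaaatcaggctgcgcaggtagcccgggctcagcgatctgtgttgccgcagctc
Lgmn start 2, chr12:102439093-102439342: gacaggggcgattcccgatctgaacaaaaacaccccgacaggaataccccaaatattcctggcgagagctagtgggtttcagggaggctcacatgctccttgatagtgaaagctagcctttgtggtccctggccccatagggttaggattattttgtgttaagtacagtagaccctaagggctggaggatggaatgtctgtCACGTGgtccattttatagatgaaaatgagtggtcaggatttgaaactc
Ctsd, chr7:142387828-142388077: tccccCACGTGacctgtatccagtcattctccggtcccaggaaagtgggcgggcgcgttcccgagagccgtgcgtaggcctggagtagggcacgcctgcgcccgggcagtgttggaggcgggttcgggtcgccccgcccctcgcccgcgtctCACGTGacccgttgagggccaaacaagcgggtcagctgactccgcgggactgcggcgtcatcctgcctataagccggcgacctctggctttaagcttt

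The 3 motifs searched on both strands were CACGTG (the E-box core, also bound by MYC), TCACGTG (the core of the lysosomal CLEAR element, which contains the E-box) and CTTTGA (the core bound by the TCF/LEF partners of beta-catenin). Of 32851 RefSeq windows of this length, 6.02% held CACGTG, 3.13% TCACGTG and 13.8% CTTTGA. The first Lgmn start held none of them, and the second held a CACGTG inside a TCACGTG, 49 bases upstream. Ctsd, which is described further on with a log2 fold change of -0.11, held a CACGTG at 245 and another at 98 bases upstream, both within a TCACGTG. Windows were at hand for 7 of the 10 genes, 9 in all. Ctsl held a CACGTG 236 bases upstream, and the second of the Ctsa starts held a CACGTG 12 bases upstream, also within a TCACGTG, and a CTTTGA 72 bases upstream. The windows of Ctss, Ctsz, Cst3 and the first Ctsa start held none of the 3 motifs. A match describes letters in a window, and whether any factor binds there was not measured.

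Among the papain-family proteases, Ctsh and Ctsl moved in opposite directions. Ctsh (chr9:89948990-89970927, mm9), an aminopeptidase, was at 27.3, 34.0 and 36.8 CPM in wild-type mice 1, 2 and 3 and at 77.1, 103 and 83.4 CPM in double mutant mice 1, 2 and 3. Its means of 32.7 ± 4.90 and 87.9 ± 13.7 CPM gave a 2.69-fold higher level and a log2 fold change of 1.43 with SE 0.159 and a 95% interval of 1.06 to 1.79. Ctsl (chr13:64464522-64471614, mm9), an endopeptidase, was at 41.0, 47.6 and 49.6 CPM in the wild type and 25.4, 19.5 and 24.0 CPM in the double mutant. The groups did not overlap for either gene. The Ctsl means of 46.1 ± 4.50 and 22.9 ± 3.09 CPM gave 0.498 of the wild-type level, a log2 fold change of -1.005 with SE 0.142 and a 95% interval of -1.33 to -0.68. Left-out mice moved the log2 fold change of Ctsh between 1.29 and 1.52 and that of Ctsl between -1.08 and -0.90. The ratio of Ctsh to Ctsl counts within a library, which needs no scaling, was 0.666, 0.715 and 0.742 in the wild type and 3.04, 5.31 and 3.48 in the double mutant, so that Ctsl had more counts in every wild-type library and Ctsh in every double mutant library.

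Ctse (chr1:133534883-133572080, mm9), an endosomal aspartic protease, had the largest fall of the 10. Its levels were 48.1, 31.0 and 23.3 CPM in wild-type mice 1, 2 and 3, and 5.4, 1.72 and 2.71 CPM in double mutant mice 1, 2 and 3. The spread within each group was wide, with the male highest in both, but the lowest wild-type mouse was still above the highest double mutant mouse. The means were 34.1 ± 12.7 and 3.27 ± 1.91 CPM, giving a log2 fold change of -3.38 with SE 0.467 and a 95% interval of -4.49 to -2.27, which ranked 120 from the lowest among tested genes. The log2 fold change lay between -3.94 and -3.05 with any mouse left out. Ctsd, the other aspartic protease, was at 252, 251 and 273 CPM in the wild type and 242, 242 and 236 CPM in the double mutant. Its log2 fold change was -0.11 with SE 0.0977 and a 95% interval of -0.33 to 0.11, and it was not called. All double mutant values of Ctsd lay below the wild-type values after TMM scaling, but the sign turned, to 0.08, when libraries were scaled by their size alone. Ctse counts per Ctsd count were 0.191, 0.123 and 0.0854 in the wild type and 0.0223, 0.00708 and 0.0115 in the double mutant, with no overlap.

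Ctsb, Ctss, Ctsz and Ctsa were not called, with 95% intervals that bound how far each could have moved. Ctsb, an endopeptidase that also removes dipeptides, was at 712, 713 and 758 CPM in the wild type and 762, 747 and 723 CPM in the double mutant, and the log2 fold change was 0.03 with an interval of -0.20 to 0.26. Ctss, which processes the invariant chain in antigen-presenting cells, was at 173, 169 and 215 CPM in the wild type and 196, 185 and 196 CPM in the double mutant, and the log2 fold change was 0.05 with an interval of -0.22 to 0.33. The groups overlapped for both, and the value of Ctss was -0.01 without wild-type mouse 2. Ctsz, a carboxypeptidase, was at 329, 314 and 349 CPM in the wild type and 309, 430.5 and 363 CPM in the double mutant, and the log2 fold change was 0.15 with an interval of -0.16 to 0.47. Ctsa, the protective protein that stabilises beta-galactosidase and neuraminidase 1, was at 176, 186 and 203 CPM in the wild type and 192, 193 and 209 CPM in the double mutant, and the log2 fold change was 0.07 with an interval of -0.16 to 0.31. Both pairs of groups overlapped, and for Ctsz double mutant mouse 2 was the highest library. The log2 fold change of Ctsz went to 0.02 without double mutant mouse 2 and to 0.27 without double mutant mouse 1. Over all fits without a mouse it ranged from 0.01 to 0.06 for Ctsb and 0.03 to 0.13 for Ctsa. Ctsa, Ctsb and Ctsz overlap genes on the opposite strand by 819, 769 and 10 exonic bases, Ctsd overlaps a gene on its own strand by 163, and whether the counting used strand is not given in the sources used here. Beta-galactosidase (Glb1) and neuraminidase 1 (Neu1) were looked up after their values were seen, as the partners of Ctsa. Glb1 rose from 17 ± 3.22 to 42.8 ± 2.09 CPM, giving a log2 fold change of 1.33 with adjusted p = 0.000550, and Neu1 had a log2 fold change of 0.27 with adjusted p = 0.190. Glb1 shares 165 exonic bases with another gene model of the same name and strand.

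Cst3 was at 36.8, 27.1 and 33.7 CPM in wild-type mice 1, 2 and 3, and at 37.2, 48.9 and 41.6 CPM in double mutant mice 1, 2 and 3. The groups did not overlap, but the highest wild-type and the lowest double mutant mouse, mouse 1 of each group, lay close together. The means of 32.5 ± 4.95 and 42.6 ± 5.94 CPM gave a log2 fold change of 0.39 with SE 0.156 and an unadjusted 95% interval of 0.03 to 0.74, and the gene was not called. It was called when wild-type mouse 1 was left out, at 0.48, and when libraries were scaled by size alone, at 0.58. Per count of Ctsb, Cst3 overlapped between the groups. Lgmn counts per Cst3 count were 0.521, 0.659 and 0.555 in the wild type and 4.27, 3.21 and 4.64 in the double mutant, so the inhibitor had more counts than Lgmn in each wild-type library and fewer in each double mutant library. Cystatin C also binds legumain, at a site apart from the one that binds papain-family proteases.

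**Figure D2:**
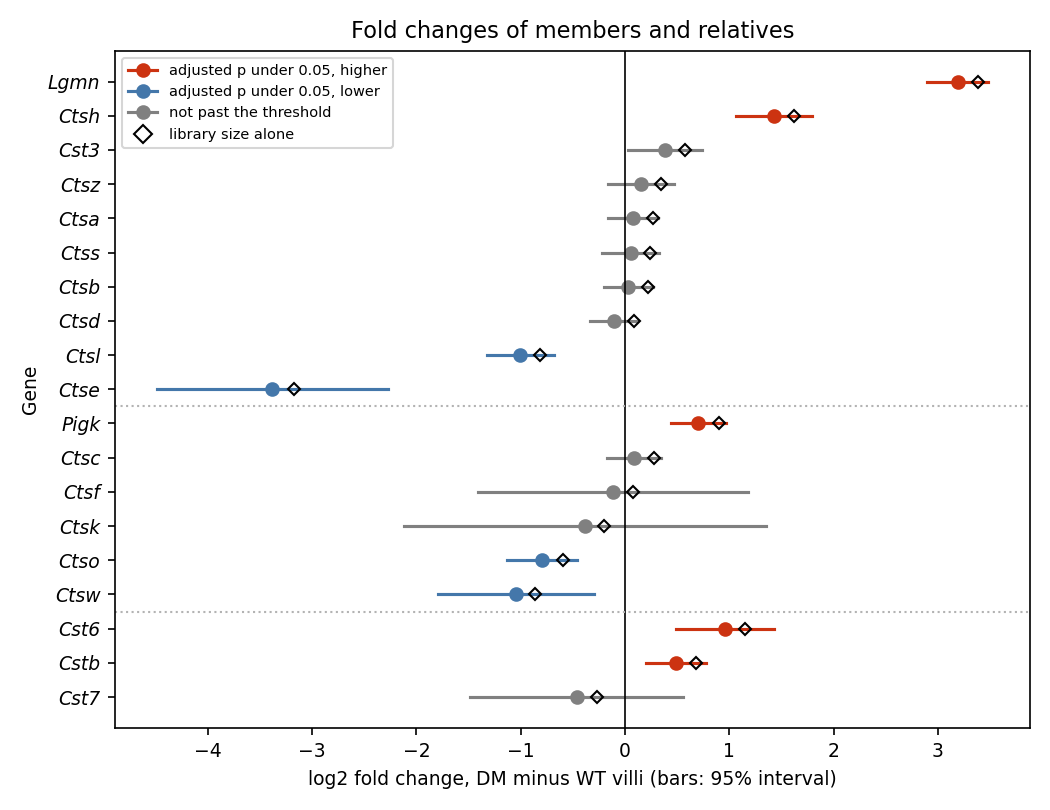
Log2 fold change of double mutant over wild-type villi for the 10 genes and for the tested genes of the lists of other cathepsins and other cystatins, as points with 95% intervals from edgeR, open diamonds for scaling by library size alone and a line at 0. Lgmn at 3.19 and Ctse at -3.38 lie at the 2 ends, and the intervals of Ctsb, Ctsd, Ctsa, Ctss and Ctsz cross 0.

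Divided by exonic length, the levels of the 10 genes could be ranked within each group. In wild-type villi the order in CPM per kb was Ctsz at 229, Ctsb at 154, Ctss at 137, Ctsd at 103, Ctsa at 39.9, Cst3 at 25.7, Ctsl at 23.3, Ctse at 10.8, Ctsh at 9.48 and Lgmn at 7.99. Neighbours whose 3 mice overlapped in that order were Ctsb with Ctss, Cst3 with Ctsl, Ctse with Ctsh, and Ctsh with Lgmn. In double mutant villi the first 4 were the same genes in the same order, Ctsz at 255, Ctsb at 157, Ctss at 142 and Ctsd at 95.2 CPM per kb. Lgmn came next at 73.0, ahead of Ctsa at 42.0, Cst3 at 33.6, Ctsh at 25.5, Ctsl at 11.6 and Ctse at 1.03 CPM per kb, and Cst3 and Ctsh were the only neighbours that overlapped. Lgmn thus moved from rank 10 to rank 5.

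As a share of the summed length-normalised level of the 9 proteases, Lgmn was 1.12 ± 0.0657% in the wild type and 9.11 ± 1.12% in the double mutant (SD, n = 3 per group). Ctsh went from 1.33% to 3.17%, Ctsl from 3.27% to 1.46%, Ctse from 1.53% to 0.131% and Ctsd from 14.4% to 11.9%, with no overlap between the groups. The sum holds Lgmn, which was selected for its rise, so a larger Lgmn share lowers the other shares by construction. For Ctsd the level per length itself was 103 ± 4.81 CPM per kb in the wild type and 95.2 ± 1.43 CPM per kb in the double mutant. Ctsz, Ctsb and Ctss, the most abundant, held 32.2%, 21.5% and 19.1% of the sum in the wild type and 31.7%, 19.6% and 17.7% in the double mutant, and each overlapped. Without Lgmn the other 8 proteases summed to 1804 ± 89.6 CPM in the wild type and 1856 ± 59.0 CPM in the double mutant, which overlapped. With Lgmn, the gene selected for its rise, the sums were 1822 ± 89.8 and 2026 ± 56.0 CPM without overlap, whereas per length the 9 proteases summed to 714 ± 42.8 and 802 ± 38.1 CPM per kb, and the groups overlapped.

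**Figure D3:**
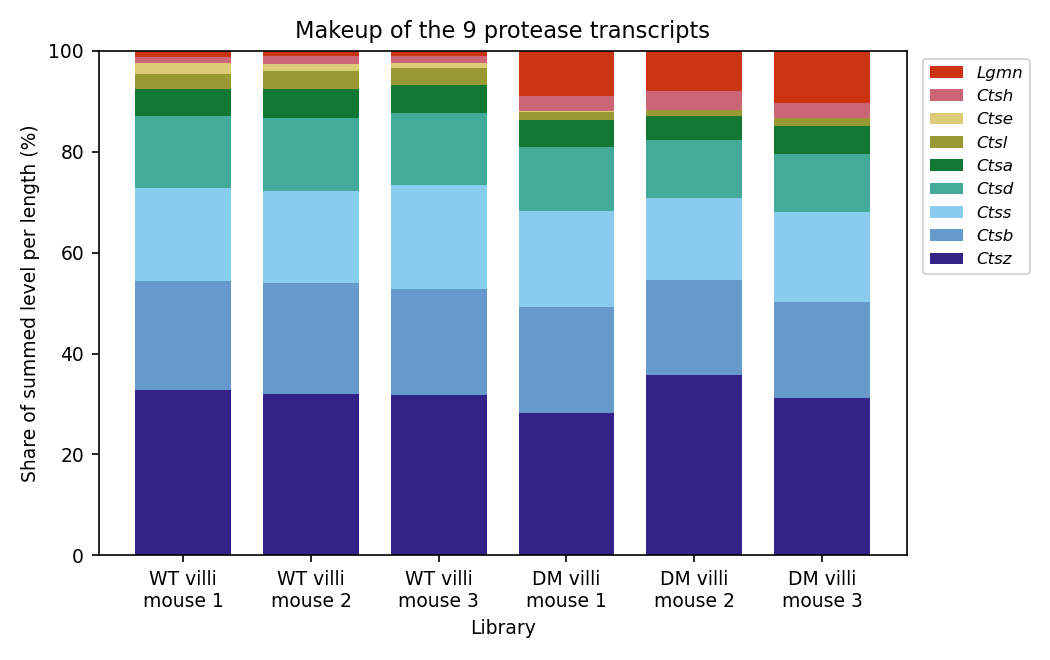
Share of each of the 9 proteases in their summed level per length, in percent, stacked for each of the 6 mice. The share of Lgmn is near 1.12% in the wild type and near 9.11% in double mutant villi, while Ctsz holds about 32% in both groups.

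The genes whose profile over the 6 mice was most like that of Lgmn were Ldhd, Trfr2, Prom1, Zfp202 and Trim50, by the root mean square difference of log2 CPM centred on each gene's mean. The differences were 0.166, 0.227, 0.266, 0.271 and 0.291 log2 units. Ldhd, a mitochondrial D-lactate dehydrogenase, was at 6.07 ± 0.742 CPM in the wild type and 62.9 ± 3.76 CPM in the double mutant. Prom1, a membrane protein used as a stem cell marker, was at 19.0 ± 4.83 and 163.5 ± 20.1 CPM. Trfr2, Zfp202 and Trim50 had means of 0.163, 0.0169 and 0.129 CPM in wild-type villi, near or under 3 counts a library, so their likeness to Lgmn rests on few reads. The log2 CPM of these profiles carried a prior count of 2, which narrows differences at such low levels. In the edgeR fit their log2 fold changes were 3.72, 5.29 and 3.28 with SE 0.433, 0.849 and 0.466, beside 3.19 for Lgmn. The genes most like Cst3 were Psmb3 (a proteasome subunit), Poldip2, 2210015D19Rik, Tmem208 and Snrpc (a subunit of the U1 small nuclear ribonucleoprotein), with differences of 0.0356 to 0.0520 log2 units and log2 fold changes of 0.35 to 0.45.

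Macrophages also express Lgmn, Ctss, Ctsz and Cst3 strongly, so myeloid marker genes are given beside them, and their part in the levels of these 4 genes was not tested. Over 16 macrophage and dendritic cell markers other than the MHC class II genes and Cd74, the summed level was 21.6 to 30.2 CPM in the wild type and 18.5 to 27.5 CPM in the double mutant, and 8 of the 16 were under 1 CPM in every library. The other 8 reached more than 1 CPM in at least 1 library, up to 8.04 CPM for Laptm5, a lysosomal membrane protein of leukocytes. Adgre1, the F4/80 antigen, was at 0.167, 0.0544 and 0.0505 CPM in the wild type and at 0, 0.0928 and 0 CPM in double mutant villi. With the MHC class II genes and Cd74, the list of 20 genes summed to 1126 to 4636 CPM in the wild type and 1630 to 4465 CPM in the double mutant, and 0 of its 12 tested genes were called by edgeR, beside 19.7% of all tested genes called higher and 17% lower, 1 at an unadjusted p under 0.05, and 0 by DESeq2 or limma. With library size alone edgeR called 1 of them higher. Cd74, the invariant chain that Ctss cleaves, was at 625, 2032 and 2671 CPM in the wild type and 1051, 2654 and 3048 CPM in the double mutant, lowest in mouse 1 of each group. Mesenchymal markers summed to 6.12 to 11.1 and 7.78 to 14.4 CPM, and endothelial markers to 4.12 to 6.69 and 6.55 to 7.37 CPM, in the respective groups.

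**Figure D4:**
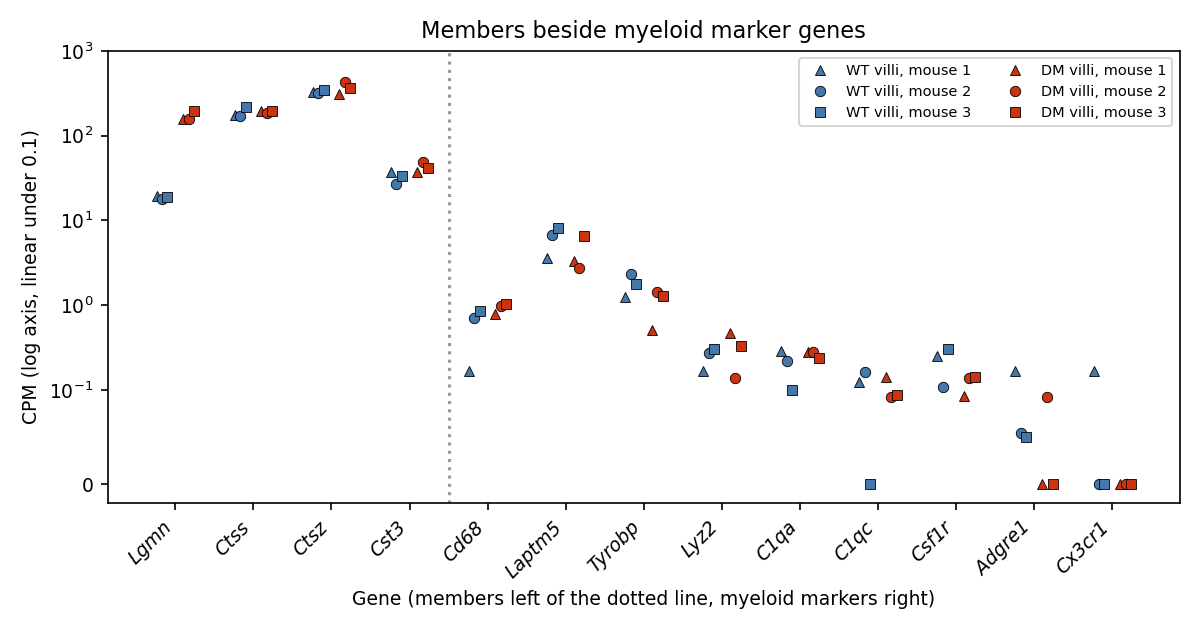
Level in CPM of Lgmn, Ctss, Ctsz and Cst3 left of the dotted line and of myeloid marker genes right of it, for each mouse, on an axis that is logarithmic above 0.1 and linear below it. Lgmn lies at 157 to 193 CPM in double mutant villi, and Adgre1 lies at 0 to 0.167 CPM over all 6 mice.

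The relatives of the 10 genes were taken from a list of 17 other cathepsins and legumain-family proteases, of which 7 were in the table and 6 were tested. As throughout the lists that follow, the counts stand beside 19.7% of all tested genes that rose and 17% that fell. In that list 1 gene rose and 2 fell, with a median log2 fold change of -0.25, and with library size alone 1 rose and 1 fell. Pigk, the legumain-family transamidase that attaches glycosylphosphatidylinositol anchors, rose from 19.4 ± 0.492 to 31.6 ± 1.88 CPM, giving a log2 fold change of 0.70 with adjusted p = 0.00223, and it shares 108 exonic bases with a gene on the opposite strand. Ctso fell from 67.0 ± 10.8 to 38.6 ± 4.17 CPM, giving a log2 fold change of -0.79 with adjusted p = 0.00409. Ctsw, a protease of cytotoxic lymphocytes, fell from 8.10 ± 2.08 to 3.91 ± 1.41 CPM, giving a log2 fold change of -1.05 with adjusted p = 0.0350, and the call was lost without wild-type mouse 2, wild-type mouse 3, double mutant mouse 1 or double mutant mouse 2 and with library size alone. Lymphocyte markers summed to 100.4 to 205.9 CPM in the wild type and 89.2 to 132.8 CPM in the double mutant, with 2 of 11 tested genes lower, and their part in the fall of Ctsw was not tested. Ctsc, the dipeptidyl peptidase that activates granule serine proteases, had a log2 fold change of 0.09 with adjusted p = 0.585, Ctsf of -0.11 with adjusted p = 0.894, and Ctsk, the collagen-degrading protease of osteoclasts, of -0.39 with adjusted p = 0.722. In the fits without a mouse, Ctsf ranged from -0.39 to 0.34 and Ctsk from -0.93 to 0.41 on the log2 scale, so neither kept its sign.

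From a list of 15 other cystatins and cathepsin inhibitors, 6 were in the table and 3 were tested. Of the 3 tested, 2 rose and none fell, beside 19.7% and 17% of all tested genes. Cst6 at chr19:5344705-5349574 (mm9), cystatin E/M, which inhibits legumain as well as papain-family proteases, was at 87.1, 79.6 and 115 CPM in the wild type and 134, 209 and 207 CPM in the double mutant. Every double mutant mouse lay above every wild-type mouse. The means were 94.1 ± 18.9 and 183 ± 42.6 CPM, giving a log2 fold change of 0.96 with SE 0.205 and adjusted p = 0.00780, and the call held with any mouse left out. Cstb, cystatin B, a cytosolic inhibitor of cathepsins, rose from 26.7 ± 0.420 to 37.5 ± 4.89 CPM, giving a log2 fold change of 0.49 with adjusted p = 0.0170, which was lost without wild-type mouse 3 or double mutant mouse 2. Cst7, an inhibitor made by leukocytes, had a log2 fold change of -0.46 with adjusted p = 0.451.

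Of 49 other hydrolases and their activators, all tested, 20 rose, 2 fell and 27 were not called, where 19.7% of all tested genes rose and 17% fell. The median log2 fold change was 0.41 beside 0.02 over all tested genes. The counts were 27 higher and 2 lower with library size alone, and 17 higher and 3 lower without wild-type mouse 1. Over all fits without a mouse 16 to 18 were called higher, and DESeq2 called 17 higher. Ggh, which trims polyglutamate from folates, rose from 4.23 ± 1.41 to 40.2 ± 7.08 CPM, giving a log2 fold change of 3.25 with SE 0.269 and adjusted p = 0.000147. Gusb, beta-glucuronidase, rose from 16.4 ± 1.05 to 58.7 ± 9.76 CPM, giving a log2 fold change of 1.845 with SE 0.147 and adjusted p = 0.000114. Pla2g15, a lysosomal phospholipase, rose by 2.21 log2 units with adjusted p = 0.00592, from a low level of 0.296 ± 0.0773 CPM. Ggh and Pla2g15 were the only genes of the list past a log2 fold change of 2. Idua, alpha-L-iduronidase, fell from 18.7 ± 2.68 to 8.12 ± 0.645 CPM, giving a log2 fold change of -1.20 with adjusted p = 0.00106, and Arsa, arylsulfatase A, fell from 44.5 ± 2.79 to 27.7 ± 2.70 CPM, giving a log2 fold change of -0.68 with adjusted p = 0.00333. Idua and Arsa share 265 and 690 exonic bases with genes on the opposite strand, as do Slc11a2 (402), Sort1 (329), Npc1 (282), Gnptab (265) and Cubn (161) of the lists below.

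Of 26 lysosomal membrane proteins, 4 rose and 8 fell, beside 19.7% and 17% of all tested genes, with a median log2 fold change of -0.17. With library size alone the split was 6 higher and 5 lower, and without wild-type mouse 3 it was 3 higher and 5 lower. Scarb2, the carrier that brings glucocerebrosidase to lysosomes, rose from 21.9 ± 3.29 to 53.5 ± 6.42 CPM, giving a log2 fold change of 1.29 with adjusted p = 0.000550. Slc11a2, a proton-coupled iron transporter that also sits in the duodenal brush border, rose by 1.77 log2 units with adjusted p = 0.00398, and Tmem192 rose by 0.76 with adjusted p = 0.00965. Slc36a1, a proton-coupled amino acid transporter, fell from 579 ± 100.8 to 171.5 ± 32.9 CPM, giving a log2 fold change of -1.76 with adjusted p = 0.000337. Npc1, which exports cholesterol from lysosomes, had a log2 fold change of -1.39 with adjusted p = 0.000508, and Tpcn1, an endolysosomal cation channel, of -0.75 with adjusted p = 0.00117.

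The V-ATPase is the proton pump that acidifies lysosomes. Of 23 subunits on the list 18 were tested, and 1 rose and 3 fell, beside 19.7% and 17% of all tested genes, with 2 higher and 1 lower under library size alone. Atp6ap2, an accessory subunit, rose by 0.77 log2 units with adjusted p = 0.00227, whereas Atp6v0a2, Atp6v1a and Atp6v1d had log2 fold changes of -0.61, -0.43 and -0.31 with adjusted p of 0.00512, 0.0312 and 0.0498. The call of Atp6v1d was lost with any mouse left out, with library size alone, DESeq2, no low-count filter, a replicate block or sex as covariate. That of Atp6v1a was lost in 4 of the 6 fits without a mouse, with library size alone and with a replicate block. The 4 calls went down to 2 without wild-type mouse 2, wild-type mouse 3, double mutant mouse 2 or double mutant mouse 3.

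Of 26 genes that sort enzymes to lysosomes, 5 rose and 4 fell, beside 19.7% and 17% of all tested genes, with 7 higher and 0 lower under library size alone (1 lower at an unadjusted p under 0.05). The 9 calls went down to 5 without wild-type mouse 2 and without double mutant mouse 3. Gnptab, which builds the mannose 6-phosphate tag on lysosomal enzymes, rose from 24.6 ± 2.30 to 44.5 ± 4.48 CPM, giving a log2 fold change of 0.86 with adjusted p = 0.00162. Nagpa, which uncovers that tag, rose by 0.95 with adjusted p = 0.00213, and the sorting receptor Sort1 by 0.91 with adjusted p = 0.0119. The lower genes named here, Igf2r (the cation-independent mannose 6-phosphate receptor), Gga1 and Hgs, had log2 fold changes of -0.59, -0.41 and -0.38 with adjusted p of 0.0125, 0.0215 and 0.0286, and none of the 3 was called lower under library size alone. M6pr, the other mannose 6-phosphate receptor of the list, was called higher at 0.67 log2 units, also with any mouse left out and under library size alone. The calls of Gga1 and Hgs were also lost with a replicate block and in 3 and 4 of the 6 fits without a mouse.

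Among MiT/TFE transcription factors and their regulators, 14 of 17 were tested, with 1 higher and 4 lower, beside 19.7% and 17% of all tested genes, and 3 higher and 1 lower under library size alone. Tfeb, which drives lysosomal genes through the E-box searched above, fell from 25.1 ± 3.08 to 13.3 ± 1.68 CPM, giving a log2 fold change of -0.91 with SE 0.155 and adjusted p = 0.00260, and was called lower under every alternative run except the threshold of 2 on the log2 fold change. Tfe3 had a log2 fold change of -0.31 with adjusted p = 0.155, and Mitf and Tfec were too low to be tested. Lamtor3 and Fnip1, which take part in nutrient signalling at the lysosome, had log2 fold changes of -0.68 and -0.66 with adjusted p of 0.0118 and 0.0480, and Rragd, a Rag GTPase, of 0.51 with adjusted p = 0.0437. The call of Fnip1 was lost in 5 and that of Rragd in 4 of the 6 fits without a mouse. Lamtor3 lost its call without double mutant mouse 3, Lamtor3 and Fnip1 with library size alone, Fnip1 also without the low-count filter, and Rragd with RLE factors and a replicate block. The 5 calls went down to 1 without double mutant mouse 3, to 2 without wild-type mouse 3, to 3 without any other mouse but double mutant mouse 1, and to 4 without that mouse.

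Uptake receptors of enterocytes and their partners were listed with 6 genes, which do not all belong to the same receptor complex. Of these, 4 were tested, with 1 higher and 2 lower beside 19.7% and 17% of all tested genes. Under library size alone, 1 was higher and 1 lower. Cubn, the cubilin receptor, fell from 87.2 ± 45.1 to 16.5 ± 9.98 CPM, giving a log2 fold change of -2.41 with adjusted p = 0.0447, which was lost in 4 of the 6 fits without a mouse. It was also lost with library size alone, without the low-count filter, with sex as covariate and with a replicate block. Its partner Amn fell by 1.07 log2 units with adjusted p = 0.0150, which was lost without double mutant mouse 1, and Lrpap1, a chaperone of endocytic receptors, rose by 0.93 with adjusted p = 0.00211. Without double mutant mouse 1 the list held 1 call in place of 3.

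**Figure D5:**
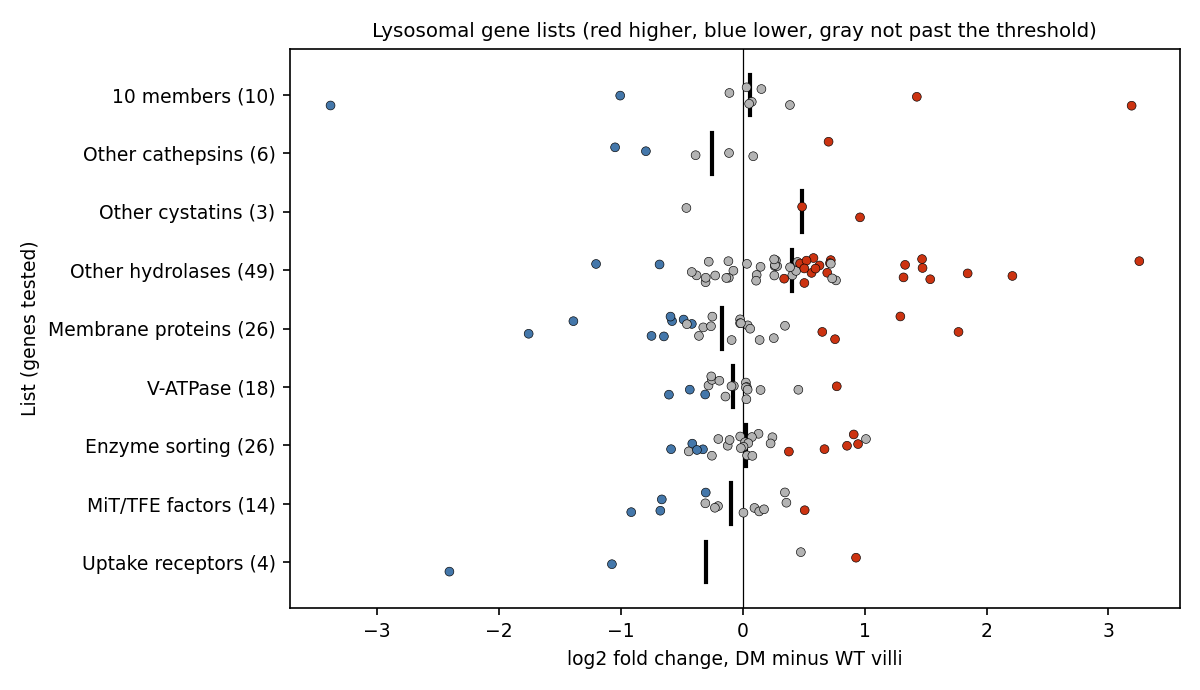
Log2 fold change of each tested gene in the lists of lysosomal genes, a point per gene, coloured by whether it was called higher, called lower or not called in edgeR at an adjusted p under 0.05, with a black bar at each list's median. The hydrolases have their median at 0.41 and the membrane proteins at -0.17, beside 0.02 over all tested genes.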

How the data were processed

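Poly-A RNA of isolated duodenal villi was sequenced from 3 wild-type and 3 double mutant mice. The authors aligned reads to mm9 with HISAT2 and deposited raw featureCounts counts per gene for each mouse. Annotation, strand and treatment of reads with several matches are not given in the sources used here. Of 20409 features, 336 were numbered transcripts, and 20032 of 20073 Ensembl identifiers matched the GENCODE annotation of mm9, which gave coordinates and exonic lengths. Totals of 19678507 to 26337318 counts limited precision for genes near 3 counts, and such limits cover counting error only.

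From these counts, genes were filtered with filterByExpr, scaled by TMM and fitted with edgeR 4.0.16 (R 4.3.3), using the quasi-likelihood test without covariates and Benjamini-Hochberg adjustment over 13346 genes. Fold changes and intervals are those of that fit. Alternatives were RLE factors, library size alone, DESeq2 1.42.0, limma 3.58.1 (voom), other filters, sex as covariate, a replicate block, each mouse left out, and a log2 fold change of at least 2. Replicates of a group differed by far more than sampling noise (chi-square per gene of 23.8 to 104, near 1 for counting noise alone). The labels number the samples, and each was taken here as a mouse. The p-values set the difference between the groups against the spread between samples of a group.

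The 10 genes and all lists were chosen with earlier results of these data known. Named genes were the 10, all tested other cathepsins and cystatins, up to 3 called genes with the largest change in each direction of every other list, Tfeb, Tfe3, Mitf and Tfec, and the 5 genes most like Lgmn and Cst3. Smad4 and Ctnnb1 were named as the check of the mutation, and Adgre1, Laptm5 and Cd74 as marker genes. Glb1, Neu1 and M6pr were named outside the rule, after their values were seen. Promoter windows came from RefSeq.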

Additional observations from a re-analysis of the deposited data

How the results depend on the processing

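Values of the 10 genes are descriptive, since Lgmn was selected on this contrast. Sign changed for Ctsd, to 0.0830 with library size alone, and for Ctss, to -0.0115 without wild-type mouse 2 (leave-one-out range -0.0115 to 0.166). Neither was called, and the cause was not tested. By construction, requiring a log2 fold change of at least 2 left fewer calls, with 708 of 4905 over all genes, 2 of 4 among the 10 genes, 2 of 22 hydrolases, 1 of 3 uptake receptors, and 0 for the other cathepsins (of 3), cystatins (of 2), membrane proteins (of 12), V-ATPase subunits (of 4), sorting genes (of 9) and MiT/TFE genes (of 5). Replicate numbers did not pair the mice (correlations of 0.0224, -0.109 and 0.0123), and with a replicate block no call among the 10 genes changed, while calls went to 2 for the V-ATPase, 5 for sorting and 3 for MiT/TFE genes. Without the low-count filter 3 MiT/TFE genes were called. With a mouse left out, calls ranged from 1 to 2 for cystatins, 8 to 12 for membrane proteins, 2 to 4 for the V-ATPase, 5 to 7 for sorting, 1 to 4 for MiT/TFE genes and 1 to 4 for uptake receptors. Depth limited the genes near 3 counts a library, such as Trfr2, Zfp202 and Trim50.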
